A study of Arabidopsis thaliana with 12 samples.

Results

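The introns described here are 7373 partly retained introns of 91 to 250 bases in germinated seeds of Arabidopsis thaliana. They were chosen by measured values from the 115194 introns of the deposited splicing table: by their length, by a total of at least 10 reads in each of 12 libraries, and by a mean PSI of at least 2 and under 50. PSI, percent spliced in, is for an intron the percent of its reads that show the intron retained. The table held 56320 introns of this length, of which 43950 had enough reads, 35928 of these had a mean PSI under 2 and 649 had one of 50 or more. The 7373 introns lay in 5077 genes and none overlapped another. The read numbers and PSI that chose them are described without a test, and the contrasts between genotypes and treatments were not used in the choice.

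The plants were wild type (WT), the accession Col-0, and sr34a-1, a mutant line of the splicing factor gene SR34A. Stratified seeds of both genotypes were grown in continuous white light for 44 h and then transferred for 2 h to medium with 0.5 µM abscisic acid (ABA), a stress hormone that arrests seedling establishment, or to the same medium without it (mock). The 4 groups, sr34a-1 ABA, WT ABA, sr34a-1 mock and WT mock, had 3 libraries each of polyadenylated RNA from whole seedlings, which the labels call biological replicates without saying how they were grown apart. The series asked what SR34A does for transcript levels and splicing in establishing seedlings and in their answer to ABA.

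Intron retention leaves an intron in the polyadenylated transcript and is a common kind of alternative splicing in plants. A retained intron within the coding sequence usually brings in a premature stop codon, and such transcripts are known to be held in the nucleus or degraded by nonsense-mediated decay. SR proteins, to which SR34A belongs, bind exonic RNA through RNA recognition motifs and help the spliceosome recognise splice sites.

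Total gene counts ranged from 61128187 to 83268758 per library. SR34A had 12.7 ± 1.28 CPM (counts scaled to the library total) in sr34a-1 ABA and 93.3 ± 3.47 CPM in WT ABA, and 13.2 ± 0.712 CPM in sr34a-1 mock and 96.2 ± 4.30 CPM in WT mock (SD, n = 3 each), so that the mutant kept a low level of the transcript. The genes of the glyoxylate cycle that young seedlings use to turn storage oil into sugar were high in all libraries, with ICL at 4044 to 6413 and MLS at 1243 to 1898 RPKM (reads scaled to gene length and library total). The photosynthesis gene RBCS1A had 5270.1 to 8911 RPKM and the germination expansin EXPA2 had 15.6 to 55.95 RPKM. The cruciferin genes of the dry seed were lower, CRA1 at 35.9 to 234 and CRU3 at 13.5 to 93.6 RPKM. The mean PSI over the introns under a PSI of 2, a measure of unspliced RNA in general, was 0.413 to 0.483 in the 12 libraries. It was 0.413, 0.439 and 0.445 in sr34a-1 ABA and 0.428, 0.449 and 0.465 in sr34a-1 mock. In WT it was 0.426, 0.429 and 0.447 with ABA and 0.448, 0.483 and 0.477 in mock, so that all WT ABA values lay below those of WT mock.

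Sequences are shown for 10 introns within coding sequence that carry the comparisons below. They have the largest PSI differences among the coding introns named for sr34a-1 against WT or for ABA against mock, where at most 10 rises and 10 falls without overlap of libraries were named in each comparison. They are 5′ to 3′ in the transcript's direction, from RefSeq TAIR10.1, on which every deposited intron start and end of these 7373 gave the deposited length. Capitals mark the 2 bases at each end of the intron and the first stop codon met when the annotated reading frame runs on into the intron.
FRO7, intron 4, chr5:20207483-20207592, minus strand: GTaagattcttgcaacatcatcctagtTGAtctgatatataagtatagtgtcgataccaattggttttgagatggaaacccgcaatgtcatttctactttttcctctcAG
TYRDC, intron 7, chr4:14156920-14157149, plus strand: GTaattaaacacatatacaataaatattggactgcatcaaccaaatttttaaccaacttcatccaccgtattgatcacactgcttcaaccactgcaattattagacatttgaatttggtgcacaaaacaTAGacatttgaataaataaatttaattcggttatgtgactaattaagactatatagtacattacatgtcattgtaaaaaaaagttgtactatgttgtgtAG
AT2G32415, intron 6, chr2:13763782-13763907, minus strand: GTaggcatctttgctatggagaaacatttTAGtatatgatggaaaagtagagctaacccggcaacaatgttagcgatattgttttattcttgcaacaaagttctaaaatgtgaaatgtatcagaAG
BASS4, intron 7, chr3:20839489-20839733, minus strand: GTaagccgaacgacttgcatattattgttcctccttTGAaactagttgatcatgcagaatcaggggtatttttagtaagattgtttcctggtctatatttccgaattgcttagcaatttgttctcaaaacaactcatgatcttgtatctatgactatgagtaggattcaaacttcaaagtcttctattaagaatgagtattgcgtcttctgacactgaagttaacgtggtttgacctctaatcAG
GGH1, intron 2, chr1:29585956-29586065, plus strand: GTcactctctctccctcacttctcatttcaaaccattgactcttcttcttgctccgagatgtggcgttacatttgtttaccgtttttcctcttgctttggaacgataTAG
AT5G44600, intron 4, chr5:17990691-17990781, plus strand: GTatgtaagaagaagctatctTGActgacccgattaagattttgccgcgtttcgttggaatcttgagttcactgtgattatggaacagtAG
AT1G22750, intron 8, chr1:8052481-8052662, plus strand: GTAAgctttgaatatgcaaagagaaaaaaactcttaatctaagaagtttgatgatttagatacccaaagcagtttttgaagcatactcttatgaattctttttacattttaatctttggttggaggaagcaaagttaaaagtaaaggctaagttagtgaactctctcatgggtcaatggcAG
AT2G44280, intron 2, chr2:18303484-18303597, minus strand: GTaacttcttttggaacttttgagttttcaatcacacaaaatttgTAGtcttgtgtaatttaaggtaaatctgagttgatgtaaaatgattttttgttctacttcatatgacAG
AT2G37585, intron 2, chr2:15766941-15767051, plus strand: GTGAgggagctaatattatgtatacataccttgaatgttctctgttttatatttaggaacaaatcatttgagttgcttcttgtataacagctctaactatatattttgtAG
TAF6B, intron 9, chr1:20292557-20292660, plus strand: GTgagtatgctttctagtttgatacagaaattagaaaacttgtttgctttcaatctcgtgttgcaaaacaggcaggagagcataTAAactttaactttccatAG
All 10 began with GT and ended with AG. The stop codon lay at base 28 in FRO7, at base 37 in BASS4 and at base 2 in AT1G22750 and AT2G37585, counted from 1 at the first base of the intron. In GGH1 the first stop codon began at base 108, so that it took in the last 3 bases of the intron.

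Most of the 7373 introns were retained in a small share of their transcripts. Their mean PSI over the 12 libraries had a median of 4.07, with quartiles of 2.76 and 7.56, and 1280 introns, 17.4%, had a mean of 10 or more. AT1G08350, at 1.999, and AT5G01350, at 2.000 PSI, lay just outside and just inside the lower limit. AT2G30460, at 49.96, and AT3G26670, at 50.03 PSI, lay on either side of the upper limit. Partly retained introns were not sparse at the length limits, with 237 of 91 bases against 203 just below, and 22 of 250 bases against 24 just above. The median length was 121 bases.

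In 3508 genes there was 1 such intron, in 1086 genes there were 2 and in 483 genes 3 or more. AT2G30600 and AT3G08840 held 8 each, the most of any gene, with mean PSI of 2.92 to 26.7 in AT2G30600 and 2.37 to 35.8 in AT3G08840. ARV1, a gene of the ARV family of sterol homeostasis, held 7, from 3.11 to 37.9 PSI. Within each of these 3 genes the introns differed widely in their retention.

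**Figure D1:**
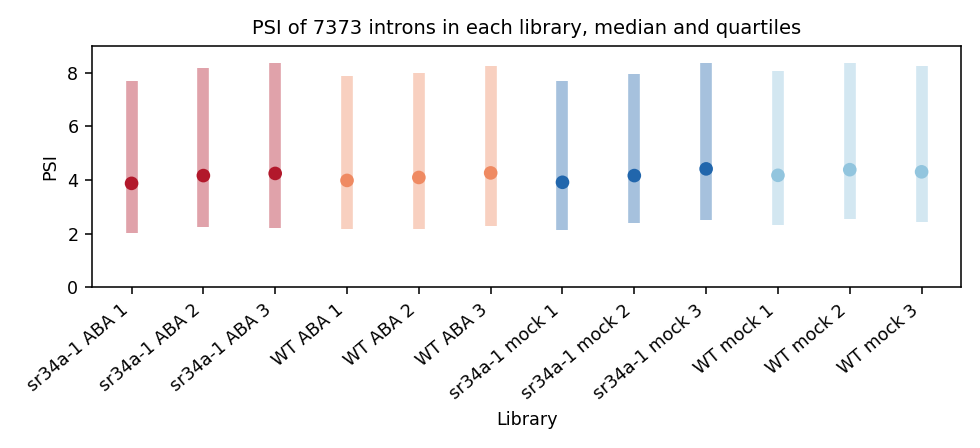
PSI of the 7373 introns in each of the 12 libraries, with the library on the x axis and PSI on the y axis. Points are medians and bars run between the quartiles, and the medians lie between 3.88 and 4.42 in all groups.

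The level of retention was close between libraries. The median PSI of the introns was 3.88, 4.17 and 4.25 in sr34a-1 ABA and 3.99, 4.10 and 4.27 in WT ABA. It was 3.92, 4.17 and 4.42 in sr34a-1 mock and 4.18, 4.39 and 4.31 in WT mock, so that the groups overlapped. A typical intron had 115 reads per library, and the median standard deviation between replicates was 1.93 PSI, against a binomial error of 2.03 PSI from the read numbers alone. In the 1844 introns with the most reads, at a median of 357 reads, the standard deviation was 1.013 PSI and the binomial error 0.984 PSI. In the 1828 with the fewest, at 38.5 reads, these were 3.47 and 3.92 PSI. The binomial error takes the retained reads as a single count. These reads are an average over the upstream and downstream junctions, so the error can overstate the counting error. The values therefore do not show whether replicates differed by more than counting. Reads carry no molecular identifiers here, so that the binomial errors cover counting error only.

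The splice sites of the introns were weaker matches to the common Arabidopsis pattern than those of spliced introns of the same length. The score used is the sum of log2 odds of each base in the site, over 9 bases at the 5′ splice site and 16 bases at the 3′ splice site, in a matrix made from all introns with enough reads. The 5′ splice site, to which the U1 snRNA pairs, had a median score of 6.66 in the partly retained introns and 7.42 in those under 2 PSI. The 3′ splice site had a median of 6.54 in the partly retained introns and 6.98 in those under 2 PSI. Within the partly retained introns the median 5′ score was 6.89 at 2 to 3 PSI, 6.73 at 3 to 5 PSI, 6.51 at 5 to 10 PSI, 6.27 at 10 to 20 PSI and 5.90 at 20 to 50 PSI. The quartiles overlapped broadly at every level. The median GC content was 33.1% in the partly retained introns and 33.0% in those under 2 PSI.

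**Figure D2:**
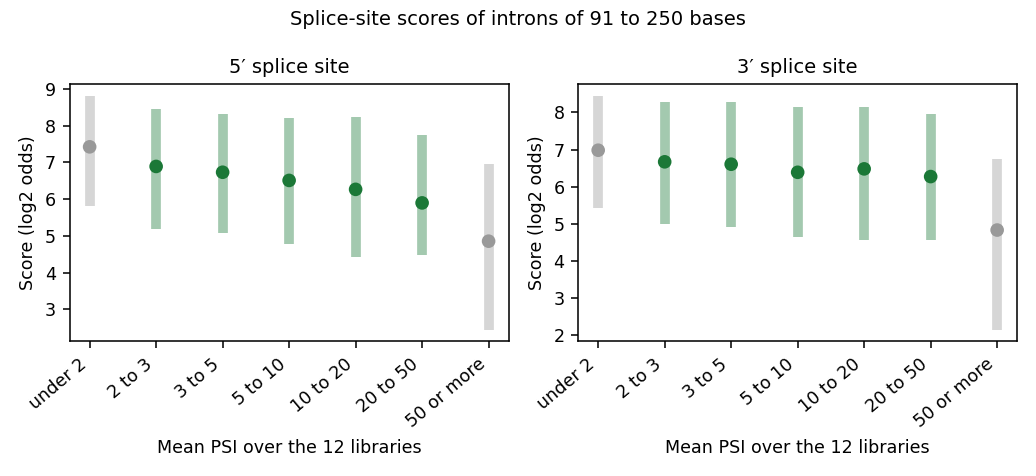
Scores of the 5′ splice site (left) and the 3′ splice site (right), in log2 odds on the y axis, for introns of 91 to 250 bases in bins of mean PSI on the x axis. Points are medians, bars run between the quartiles, green marks the 5 bins of partly retained introns and grey the introns below and above them, and the 5′ median is 6.89 in the first green bin and 5.90 in the last.

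A small group of the introns had the start sequence of U12-type introns. That class is removed by the minor spliceosome, with a separate set of snRNAs, and its conserved starts ATATCCTT and GTATCCTT were searched at the intron's first base on the transcript's strand only. One or the other start was found in 89 of 7373 partly retained introns (1.21%), in 65 of 35928 introns under 2 PSI (0.181%) and in 156 of all 43950 introns of this length with enough reads (0.355%). Short partly retained introns had such a start in 0.542% and long ones in 0.477%. AT-AC ends, the other sign of this class, were present in 24 partly retained introns (0.326%) and in 18 introns under 2 PSI (0.050%). The 89 introns lay in 88 genes and had a median of 5.08 PSI, from 2.03 to 43.8. A match of these letters is a description and does not show which spliceosome removes the intron.

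The 2 most retained of these introns and the most retained one with AT-AC ends are given. Capitals mark the first 8 bases, which are the start searched for, and the last 2.
AT1G20720, chr1:7188395-7188498, minus strand: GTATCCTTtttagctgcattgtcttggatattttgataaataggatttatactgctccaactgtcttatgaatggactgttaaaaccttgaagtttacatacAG
ATXR4, chr5:2035148-2035244, plus strand: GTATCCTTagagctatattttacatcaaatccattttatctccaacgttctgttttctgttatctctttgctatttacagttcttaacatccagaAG
AT1G73350, chr1:27576136-27576238, minus strand: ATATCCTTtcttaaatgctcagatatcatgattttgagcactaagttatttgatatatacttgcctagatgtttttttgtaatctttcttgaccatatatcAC
AT1G20720, a RAD3-like helicase gene, had a lowest, median and highest PSI of 27.5, 43.5 and 57.5 over the 12 libraries. ATXR4, which encodes a SET domain protein, had 28.2, 42.7 and 55.2 PSI. AT1G73350, with AT-AC ends, had 14.8, 23.8 and 31.1 PSI. The genes CKB1, CKB2, CKB3 and CKB4, for beta subunits of casein kinase II, a protein kinase that also acts on clock proteins, carried one each, at means of 2.74 PSI in CKB1 and in CKB2, 23.2 PSI in CKB3 and 14.5 PSI in CKB4. The sodium-proton exchanger genes NHX5 and NHX6 did too, at 9.61 PSI in NHX5 and 15.4 PSI in NHX6. Of the 89 introns, limma with Benjamini-Hochberg adjustment called 0 between sr34a-1 and WT, with 3 at an unadjusted p under 0.05, and 0 between ABA and mock, with 4. The same model fitted to PSI instead of log ratios also called 0 in both. Over all 7373 introns, limma on log ratios called 1.14% between sr34a-1 and WT and 0.0543% between ABA and mock.

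Most of the partly retained introns, 6707 or 90.97%, lay between coding bases, against 97.95% of introns under 2 PSI. Another 476 (6.46%) lay before the start codon and 141 (1.91%) after the stop codon, against 1.54% and 0.376% of introns under 2 PSI. Retention was higher outside the coding sequence, with a median of 7.28 PSI before it and 6.94 PSI after it, and 3.92 PSI between coding bases. Of the 6707 coding introns, 6200 (92.4%) held a stop codon in the annotated reading frame, at a median of base 31. Only 131 (1.95%) had no stop and a length that is a multiple of 3, so that their retention would add residues without a frame shift. Their median PSI was 3.41.

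The annotation already holds a transcript with the intron as exon for 1323 of the introns (17.9%), against 1.013% of introns under 2 PSI. These had a median of 7.51 PSI and the other 6050 a median of 3.71 PSI. First introns made up 18.5% and last introns 24.6% of the partly retained introns, against 11.9% and 13.3% of introns under 2 PSI. The genes of the partly retained introns had a median of 10.4 RPKM and those of the spliced introns 18.5 RPKM.

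PSI of an intron averages reads over its upstream and downstream junctions, and the deposited table gives for each library a p of balance between them. Balance failed, at a p under 0.05 in 7 or more of the 12 libraries, in 324 of 7373 introns (4.39%), and in these the PSI describes one end of the intron more than the whole. Of the 224 introns with another annotated acceptor inside, 27.2% failed, and the downstream junction had more reads in 87.9%. Of the 175 with another annotated donor inside, 26.9% failed, and the downstream junction had more reads in 27.4%. In the 6728 introns with no annotated splice site or transcript end inside, 2.96% failed.

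The 3 introns with the most reads each had more upstream than downstream reads. Another donor is annotated inside the introns of RCA and RPL4 but not inside that of AT1G52100. Intron 6 of RCA (chr2:16571067-16571190, with another donor annotated inside), the gene of rubisco activase whose transcript is known to be spliced into isoforms, had 18664 to 43271 reads per library. Its PSI was 19.3, 19.0 and 18.9 in sr34a-1 ABA and 19.9, 19.1 and 19.0 in WT ABA, and 21.4, 19.9 and 19.4 in sr34a-1 mock and 19.6, 19.6 and 18.9 in WT mock. Its upstream junction had 104663 reads in all and its downstream junction 3115. RPL4, a ribosomal protein gene, had 7039 upstream and 1513 downstream reads at a mean of 3.35 PSI. AT1G52100, a lectin gene, had 3142 upstream and 1578 downstream reads at 3.24 PSI.

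**Figure D3:**
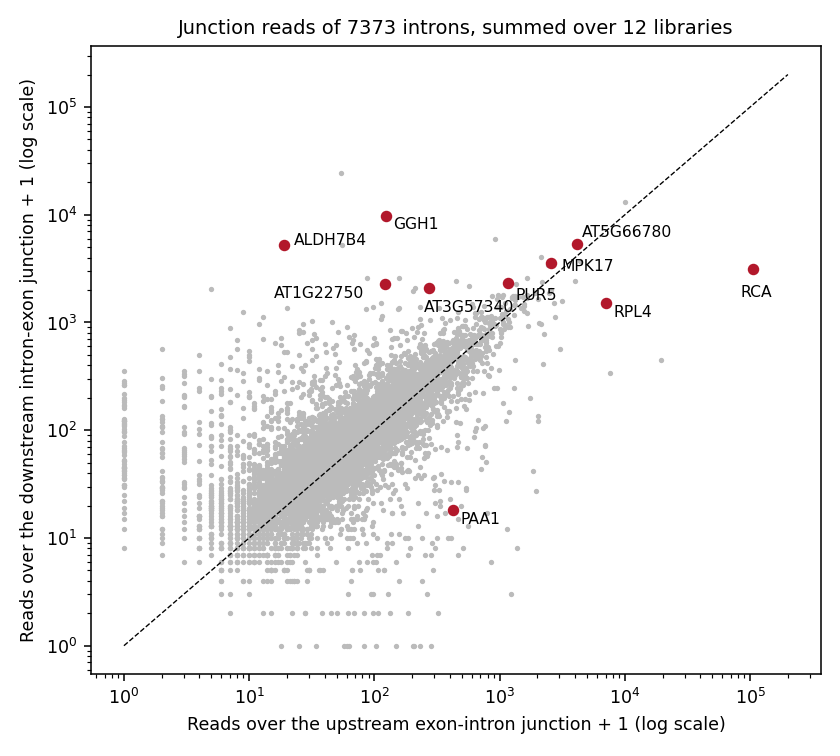
Reads over the upstream exon-intron junction (x axis) and the downstream intron-exon junction (y axis), each plus 1 on a log scale and summed over 12 libraries, for 7373 introns in grey and 10 named ones in red. The dashed line marks equal reads, RCA lies far below it with 104663 upstream and 3115 downstream reads, and GGH1 and ALDH7B4 lie far above it with 122 and 18 upstream reads.

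Few of these introns were called between sr34a-1 and WT, and of those called more were retained more than less in the mutant. Averaged over both treatments, 84 introns passed limma on the log2 ratio of retained to spliced reads, with p-values adjusted after Benjamini and Hochberg and a threshold of 0.05. They make up 1.14% of the introns, against 1.53% of all tested introns and 2.19% of all tested splicing events. In sr34a-1 retention was higher in 56 of the 84 and lower in 28, and 1.11% of all tested introns passed as higher and 0.413% as lower. Of short partly retained introns 0.709% passed, 31 higher and 3 lower, and of long ones 2.53%, 75 higher and 26 lower. Over all tested introns, 186 were higher and 69 lower. More rises than falls were thus not particular to introns of this length. In 9 of the 84, 5 higher and 4 lower, the mean of one genotype was under 2 PSI, so that they met the lower limit only through the genotype in which they were high. In 6 more, 5 higher and 1 lower, one genotype had a mean of 50 PSI or more. Junction balance, described above, failed in 6 of the 56 rises and in 10 of the 28 falls, beside 4.39% of all 7373 introns. Without introns of unbalanced junctions, 68 passed, 50 higher and 18 lower. The PSI of 47 of the 84 did not overlap between the 6 sr34a-1 and the 6 WT libraries. The same share over all 7373 introns is not given here. Since the 84 were called on these same values, the 47 are a description and no separate support. The median log2 difference over all 7373 introns was -0.04, against -0.02 over all tested introns. Leaving out sr34a-1 mock replicate 2 brought the count to 52, of which 51 were among the 84.

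**Figure D4:**
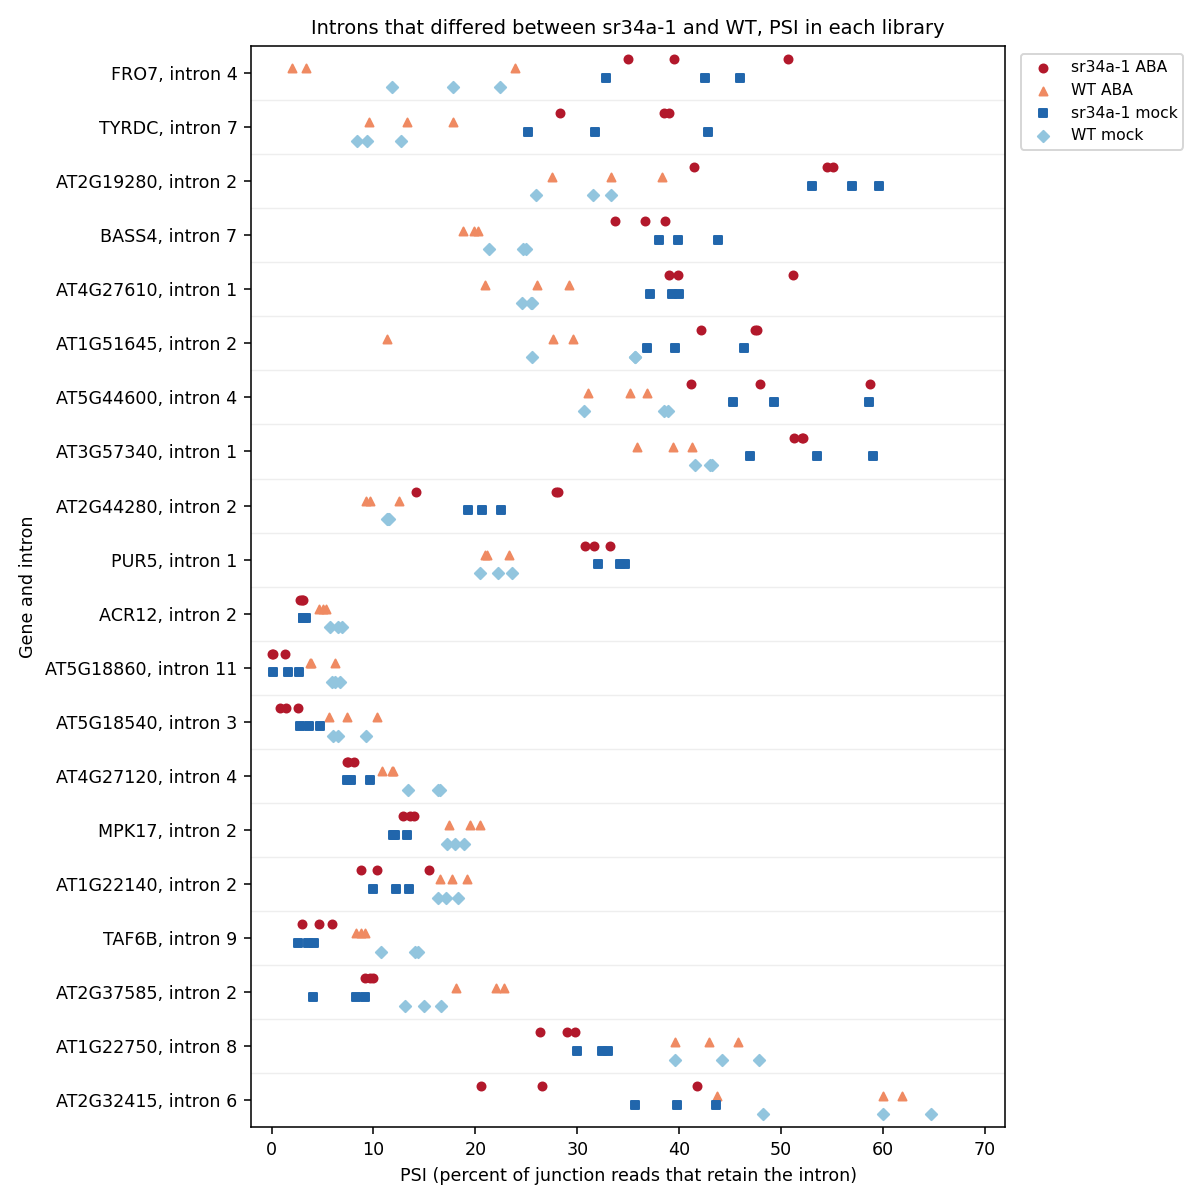
PSI on the x axis of the 10 introns with the largest rises and the 10 with the largest falls in sr34a-1 against WT, among those that passed the test without overlap of the 6 and 6 libraries. Each symbol is a library, with circles for sr34a-1 ABA, triangles for WT ABA, squares for sr34a-1 mock and diamonds for WT mock, and the upper 10 introns are higher and the lower 10 lower in sr34a-1.

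FRO7, a ferric reductase of the chloroplast, had the largest rise, in its intron 4. Its PSI was 39.5, 34.96 and 50.7 in sr34a-1 ABA against 23.9, 2.00 and 3.41 in WT ABA, and 32.8, 42.5 and 45.9 in sr34a-1 mock against 17.8, 11.8 and 22.4 in WT mock. All sr34a-1 values were above all WT values, at a log2 difference of 2.29 ± 0.54 (SE, adjusted p = 0.0129 by limma), on only 11.5 to 39.75 reads per library. The gene itself was low, at 2.03 ± 0.146 CPM in sr34a-1 and 2.17 ± 0.117 CPM in WT over 6 libraries each.

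Intron 7 of TYRDC, which encodes tyrosine decarboxylase, had 28.3, 39.0 and 38.5 PSI in sr34a-1 ABA against 9.57, 13.3 and 17.8 in WT ABA. In mock it had 25.2, 31.8 and 42.9 PSI in sr34a-1 against 9.33, 8.43 and 12.7 in WT, again without overlap (log2 difference 1.95 ± 0.30, adjusted p = 7.88e-05 by limma). The gene was lower in sr34a-1, at 11.3 ± 5.10 CPM against 21.3 ± 7.52 CPM in WT (log2 fold change -0.97, adjusted p = 1.81e-08 by edgeR). Intron 7 of BASS4, a symporter of the bile acid and sodium symporter family, had 38.6, 36.6 and 33.7 PSI in sr34a-1 ABA against 18.8, 19.8 and 20.2 in WT ABA. It had 43.8, 38.0 and 39.9 PSI in sr34a-1 mock against 24.7, 24.98 and 21.4 in WT mock (log2 difference 1.17 ± 0.17, adjusted p = 2.32e-05 by limma). Both of its junctions had more intron reads in the mutant: in mock 157 upstream and 211 downstream reads in sr34a-1 against 104 and 145 in WT, while spliced reads were 261 in sr34a-1 and 391 in WT.

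Other coding introns moved by less. AT5G44600, a gene of the S-adenosylmethionine-dependent methyltransferases, averaged 50.2 ± 7.14 PSI in sr34a-1 and 35.2 ± 3.60 PSI in WT at its intron 4 of 91 bases (SD, n = 6 each, over both treatments). AT2G44280, of the major facilitator transporters, averaged 22.1 ± 5.36 PSI in sr34a-1 and 10.9 ± 1.24 PSI in WT. The adjusted p by limma was 0.00572 for AT5G44600 and 0.00153 for AT2G44280.

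A share of the rising introns lay outside the coding sequence, where retention leaves the protein's frame as it is. Of the 56, 36 lay between coding bases, each with a stop codon in frame, 13 before the start codon and 5 after the stop codon. Counted over both directions, 3.57% of the 476 introns before the start codon passed, 4.96% of the 141 after the stop codon and 0.850% of the 6707 coding ones. The median reads were 139.5, 142 and 114 for these places, and PSI was higher outside the coding sequence, as given above. The part of read number and PSI in this contrast was not tested. By PSI, 0.263% of introns at 2 to 3 passed and 5.53% of those at 20 to 50, and by reads 0.109% of the 1828 introns with the fewest and 2.6% of the 1844 with the most.

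Among introns before the start codon, intron 1 of PUR5, a gene of purine synthesis, had closely grouped values. It had 33.2, 31.7 and 30.7 PSI in sr34a-1 ABA against 23.3, 20.9 and 21.1 in WT ABA, and 32.0, 34.2 and 34.7 in sr34a-1 mock against 23.6, 20.5 and 22.2 in WT mock. The groups did not overlap and the change also passed in each treatment alone (averaged log2 difference 0.79 ± 0.11, adjusted p = 1.06e-05 by limma). AT4G27610, likewise at intron 1, in which another donor is annotated, averaged 41.1 ± 5.05 PSI in sr34a-1 and 25.3 ± 2.68 PSI in WT. AT3G57340, a DnaJ-type chaperone gene, averaged 52.5 ± 3.905 PSI in sr34a-1 and 40.7 ± 2.77 PSI in WT, but its junctions were unbalanced in all 12 libraries, with 273 upstream and 2085 downstream reads. After the stop codon, AT2G19280, a pentatricopeptide repeat gene, averaged 53.4 ± 6.31 PSI in sr34a-1 and 31.7 ± 4.465 PSI in WT, with unbalanced junctions in 7 libraries. The non-coding AT1G51645 averaged 43.3 ± 4.52 PSI in sr34a-1 and 27.6 ± 8.96 PSI in WT. Its call (adjusted p = 0.0392 by limma) held in 3 of the 12 fits that leave out 1 library, those without sr34a-1 ABA replicate 1, WT ABA replicate 2 or WT ABA replicate 3, and its adjusted p reached 0.138 without WT mock replicate 3 and 0.0869 with no filter on the mean PSI of tested events.

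Introns that were retained less in the mutant were fewer. Intron 6 of AT2G32415, a gene of the ribonuclease H fold with an HRDC domain, had 26.5, 20.6 and 41.8 PSI in sr34a-1 ABA against 60.0, 61.9 and 43.8 in WT ABA. In mock it had 35.7, 39.8 and 43.6 PSI in sr34a-1 against 64.7, 48.2 and 60.0 in WT, so that the ranges came close but did not overlap (log2 difference -1.30 ± 0.31, adjusted p = 0.0135 by limma, and 0.050 without WT mock replicate 1). Another acceptor is annotated inside this intron of AT2G32415. Intron 2 of MPK17, a mitogen-activated protein kinase, had 13.97, 13.6 and 12.8 PSI in sr34a-1 ABA against 19.5, 17.4 and 20.4 in WT ABA. In mock it had 13.3, 12.1 and 11.9 PSI in sr34a-1 against 17.2, 18.9 and 18.0 in WT. On 1428 to 2616.5 reads per library this was a small and well separated fall, at a log2 difference of -0.61 ± 0.09 (adjusted p = 2.19e-05 by limma).

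Intron 9 of TAF6B, a subunit gene of the general transcription factor TFIID, had 4.70, 5.94 and 2.99 PSI in sr34a-1 ABA against 8.33, 8.81 and 9.15 in WT ABA. In mock it had 4.21, 3.60 and 2.62 PSI in sr34a-1 against 10.8, 14.4 and 14.1 in WT, without overlap. AT4G27120, a DDRGK domain gene, averaged 7.96 ± 0.852 PSI in sr34a-1 and 13.5 ± 2.42 PSI in WT. AT5G18860, a nucleoside hydrolase gene, averaged 0.993 ± 1.07 PSI in sr34a-1 and 5.455 ± 1.30 PSI in WT, and was included only through its WT values. Its gene was higher in sr34a-1 at 33.7 ± 1.62 CPM against 11.55 ± 0.656 CPM in WT (adjusted p = 2.01e-12 by edgeR). ACR12, an ACT domain gene, averaged 3.06 ± 0.203 PSI in sr34a-1 and 5.71 ± 0.898 PSI in WT, with unbalanced junctions in all 12 libraries.

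AT1G22750, of no described function, averaged 30.1 ± 2.41 PSI in sr34a-1 and 43.3 ± 3.32 PSI in WT at its intron 8, in which another acceptor is annotated. Its junctions were unbalanced in all 12 libraries, with 120 upstream and 2255 downstream reads, while its gene had 29.4 ± 0.516 CPM in sr34a-1 and 29.5 ± 0.866 CPM in WT. The calls of 3 further falls rested on single libraries. AT2G37585, a glycosyltransferase gene, averaged 8.385 ± 2.204 PSI in sr34a-1 and 18.0 ± 3.86 PSI in WT (adjusted p = 0.0188 by limma, up to 0.0701 without sr34a-1 mock replicate 3, and lost also without WT mock replicate 2). AT1G22140, a zinc finger gene, averaged 11.7 ± 2.48 PSI in sr34a-1 and 17.5 ± 1.08 PSI in WT (adjusted p = 0.0142 by limma, up to 0.0572 without sr34a-1 ABA replicate 2, and lost also without sr34a-1 mock replicate 1). AT5G18540, an E3 ubiquitin ligase gene, averaged 2.68 ± 1.44 PSI in sr34a-1 and 7.55 ± 1.89 PSI in WT, and its adjusted p of 0.0405 by limma held only without WT ABA replicate 1 or sr34a-1 ABA replicate 1 and reached 0.125 without WT mock replicate 1.

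The level of the genes that hold these introns was a readout the choice did not use. Of the 53 genes with a rising intron, edgeR's quasi-likelihood test called 20 lower and 5 higher in sr34a-1, and 28 passed in neither direction. Of the 28 genes with a falling intron, it called 1 lower and 13 higher, and 14 passed in neither direction. Over all 5076 tested genes with a partly retained intron, 788 were lower and 1031 higher, or 35.8% in all, against 33.9% of all tested genes. The median log2 fold change was -0.09 in the genes of rising introns, 0.12 in those of falling introns and 0.02 over the 5076 genes. Both readouts come from the same libraries, and whether intron reads entered the gene counts is not given in the sources used here.

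SR34A was itself among the genes with changed introns. Intron 9 of SR34A (chr3:18333987-18334216) had 7.10, 9.64 and 13.1 PSI in sr34a-1 ABA against 1.88, 2.64 and 1.92 in WT ABA, and 13.9, 9.40 and 10.2 in sr34a-1 mock against 2.55, 3.38 and 1.18 in WT mock. Intron 7 had 4.20, 6.88 and 5.41 PSI in sr34a-1 ABA against 0.780, 0.740 and 0.620 in WT ABA, and 2.33, 2.51 and 8.81 in sr34a-1 mock against 0.910, 0.970 and 0.890 in WT mock. Neither overlapped between genotypes, and intron 9 had an adjusted p of 4.28e-07 by limma. Intron 7, at a mean of 5.02 PSI in sr34a-1 and 0.818 PSI in WT, met the limit of 2 PSI only through sr34a-1, so that its difference is a description, and it was not called when the model was fitted to PSI. In mock, intron 9 had 42 upstream and 65 downstream reads in sr34a-1 against 39 and 70 in WT, while its spliced reads were 436 in sr34a-1 against 2266 in WT.

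SR34B, the closely related SR gene, was retained more in the mutant at its intron 11 (chr4:1071675-1071842), which lies after the stop codon. Its PSI was 9.0, 14.6 and 10.02 in sr34a-1 ABA against 2.22, 3.72 and 4.31 in WT ABA, and 15.8, 15.2 and 17.3 in sr34a-1 mock against 1.25, 2.76 and 3.84 in WT mock. All mutant values were above all WT values (log2 difference 2.25 ± 0.38, adjusted p = 0.000264 by limma). The gene had 9.25 ± 0.822 CPM in sr34a-1 and 9.80 ± 0.208 CPM in WT (adjusted p = 0.206 by edgeR). Introns 2 and 3 of SR34B did not pass (adjusted p = 0.615 and 0.600 by limma), with 21 to 82.6 reads per library.

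Across the list of 20 SR and SR-like genes, 7 held 11 partly retained introns. The 3 described above passed, all with more retention in sr34a-1, beside a share of 1.14% over all 7373 introns. Only that of SR34B lay outside SR34A, the gene mutated in sr34a-1. SR34A intron 7 was included only through its sr34a-1 values. Over the 11 introns, those of SR34A included, the PSI difference had a median of 2.06, and the log2 difference one of 0.55, beside -0.04 over all 7373 introns. The most retained of them was intron 4 of SCL33, an SC35-like factor, at means of 31.6 PSI in sr34a-1 ABA, 24.2 in WT ABA, 25.8 in sr34a-1 mock and 24.01 in WT mock, which did not pass (adjusted p = 0.227 by limma). Of 15 introns in 7 genes of other splicing regulators and core factors, limma called 0, with 1 at an unadjusted p under 0.05. These included 5 introns of AFC2 and 3 of AFC3, kinases that phosphorylate SR proteins, at means of 5.22 to 18.3 PSI in AFC2 and 13.8 to 35.04 PSI in AFC3. UPF2, of nonsense-mediated decay, held the only intron of its list, at a mean of 2.89 PSI, and it did not pass.

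Among 11 introns in 7 circadian clock genes, 1 was higher and 0 lower in sr34a-1, beside a share of 1.14% called over all 7373 introns. It was an intron of LHY (chr1:37399-37568), a morning transcription factor of the clock, before the start codon. Its PSI was 11.5, 11.3 and 14.3 in sr34a-1 ABA against 3.28, 4.23 and 3.53 in WT ABA, and 8.09, 9.92 and 8.10 in sr34a-1 mock against 6.15, 4.49 and 4.71 in WT mock. The genotypes did not overlap in either treatment (averaged log2 difference 1.35 ± 0.17, adjusted p = 1.76e-06 by limma). The difference passed under ABA alone but not in mock alone. The gene was slightly lower in sr34a-1, at 149 ± 19.2 CPM against 169.5 ± 17.1 CPM in WT (adjusted p = 0.00117 by edgeR). Introns 4 and 7 of RVE8, another transcription factor of the clock, had means of 21.4 and 22.0 PSI and did not pass. Of 10 introns in 8 light signalling genes limma called 0, with 0 at an unadjusted p under 0.05, and the model on PSI also called 0. Of 14 introns in 12 ABA signalling genes it called 0, with 1 at an unadjusted p under 0.05.

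Within single treatments the counts were smaller. In mock, 16 introns passed, 10 higher and 6 lower in sr34a-1, which is 0.217% against 0.311% of all tested introns (0.185% higher and 0.126% lower). Under ABA, 27 passed, 19 higher and 8 lower, which is 0.366% against 0.544% of all tested introns (0.365% higher and 0.179% lower). These counts depended on single libraries: the mock count was 10 without sr34a-1 mock replicate 2, 7 without sr34a-1 mock replicate 3 or WT mock replicate 2, and 9 without WT mock replicate 1 or 3. The ABA count was 17 without sr34a-1 ABA replicate 2 or WT ABA replicate 3. Without WT ABA replicate 3, 16 introns were higher and 1 lower under ABA, and without WT mock replicate 2, 6 were higher and 1 lower in mock. With introns of unbalanced junctions left out, 11 passed in mock, 8 higher and 3 lower, and 23 under ABA, 19 higher and 4 lower. One of the compared groups had a mean under 2 PSI in 3 of the 19 rises and 4 of the 8 falls under ABA, AT4G30790 among the falls, and in 0 of the 10 rises and 1 of the 6 falls in mock. All 16 of the first and 25 of the second were among the 84, and 7 were in both.

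The interaction of genotype and treatment called 0 of 7373 introns by limma, with 222 at an unadjusted p under 0.05 (3.01%), and the model on PSI also called 0. A call in one treatment and not in the other is therefore not shown to differ between them. FBX2, an F-box gene, had 26.0, 24.4 and 23.4 PSI in sr34a-1 ABA against 8.45, 10.2 and 6.10 in WT ABA at its only intron, before the start codon (adjusted p = 0.000354 by limma in that comparison). In mock it had 20.9, 16.2 and 22.9 PSI in sr34a-1 against 17.5, 13.7 and 12.2 in WT, where the genotypes overlapped. Another acceptor is annotated inside this intron of FBX2. AT1G58160, a jacalin lectin-like gene noted in the annotation as a pseudogene in Col-0, had 31.7, 40.5 and 29.0 PSI in sr34a-1 ABA against 6.90, 0 and 10.5 in WT ABA. Its adjusted p of 0.0434 by limma held in 1 of the 12 fits that leave out 1 library, the one without WT ABA replicate 3, and rose to 0.157 without WT ABA replicate 2.

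Among the falls under ABA, AT3G58530 had 10.9, 7.38 and 6.04 PSI in sr34a-1 ABA against 23.1, 23.9 and 30.2 in WT ABA (adjusted p = 0.014 by limma, up to 0.0821 without WT ABA replicate 3, and lost also without sr34a-1 ABA replicate 3). AT4G08991 had 5.54, 5.79 and 0.780 PSI in sr34a-1 ABA against 10.3, 6.86 and 43.7 in WT ABA, and without the high library, WT ABA replicate 3, its adjusted p was 0.263. It was lost also without sr34a-1 ABA replicate 3 and in the model on PSI, and its junctions were unbalanced in 9 libraries. Another donor is annotated inside this intron of AT4G08991. AT4G30790, an autophagy gene, was listed at 0 PSI in all 3 libraries of sr34a-1 ABA, against 2.18, 9.78 and 2.53 PSI in WT ABA. That call was lost without any of the 3 sr34a-1 ABA libraries or without WT ABA replicate 2 or 3, at an adjusted p of up to 0.170, and in the model on PSI it was 0.267. In mock, the largest fall was in intron 6 of PAA1, a copper-transporting ATPase of the chloroplast, at 12.2, 7.20 and 7.61 PSI in sr34a-1 mock against 21.3, 23.0 and 17.8 in WT mock. Its junctions were unbalanced in all 12 libraries, with 423 upstream and 17 downstream reads. Its adjusted p of 0.0496 by limma was 0.269 without sr34a-1 mock replicate 2, and 5 of the 12 fits that leave out 1 library kept it. These were the fits without sr34a-1 mock replicate 1, sr34a-1 ABA replicate 1 or 3, or WT ABA replicate 1 or 2.

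Very few of these introns were called between 2 h of ABA and mock, although many of their genes were. Averaged over both genotypes, limma with Benjamini-Hochberg adjustment called 4 introns, 2 higher and 2 lower with ABA, which is 0.0543% against 0.0718% of all tested introns. In the same libraries edgeR called 2682 of the 5076 tested genes that hold these introns (52.8%, against 51.2% of all tested genes), 1408 higher and 1274 lower. The intron test rested on a median of 115 reads per intron and library, the gene test on the whole count of a gene. These counts therefore do not show whether introns changed less often than genes. In sr34a-1 alone and in WT alone, 2 introns passed each, 1 higher and 1 lower, which is 0.0271% of the introns against 0.0359% of all tested introns in sr34a-1 and 0.012% in WT. The median log2 difference over the 7373 introns was -0.07, against -0.06 over all tested introns. With the libraries centred on their median ratio, 2 were higher and 1 lower, and with no filter on the mean PSI of tested events 37 introns passed, 17 higher and 20 lower.

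Both introns that passed in each genotype had reads at almost one end only. The first intron of ALDH7B4, a stress-induced aldehyde dehydrogenase gene, lies before the start codon (chr1:20198856-20198961). Its PSI was 60.6, 54.5 and 54.2 in sr34a-1 ABA against 37.5, 33.5 and 36.9 in sr34a-1 mock, and 50.8, 54.8 and 59.5 in WT ABA against 33.5, 38.3 and 33.1 in WT mock. All ABA values were above all mock values (log2 difference 1.195 ± 0.12, adjusted p = 6.64e-08 by limma). The upstream junction had 18 reads over all libraries and the downstream junction 5241. The gene rose with ABA, at 236 ± 13.6 CPM against 110 ± 4.97 CPM in mock (SD, n = 6 each, adjusted p = 2.37e-13 by edgeR).

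Intron 2 of GGH1, a gamma-glutamyl hydrolase gene of folate metabolism, whose sequence is given above, went the other way. Its PSI was 46.8, 42.7 and 42.2 in sr34a-1 ABA against 63.5, 60.6 and 59.9 in sr34a-1 mock, and 42.1, 35.2 and 37.2 in WT ABA against 53.9, 52.6 and 52.9 in WT mock. The ABA values lay below all mock values (log2 difference -0.95 ± 0.09, adjusted p = 5.68e-08 by limma), and the sr34a-1 values averaged 6.95 PSI above those of WT (adjusted p = 0.00499 by limma). The upstream junction had 122 reads and the downstream junction 9721. The gene fell with ABA, at 79.7 ± 4.12 CPM against 113 ± 5.21 CPM in mock (adjusted p = 7.24e-09 by edgeR). When introns with unbalanced junctions were left out, the averaged ABA count was 2, and 0 introns passed in WT or in sr34a-1 by limma.

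**Figure D5:**
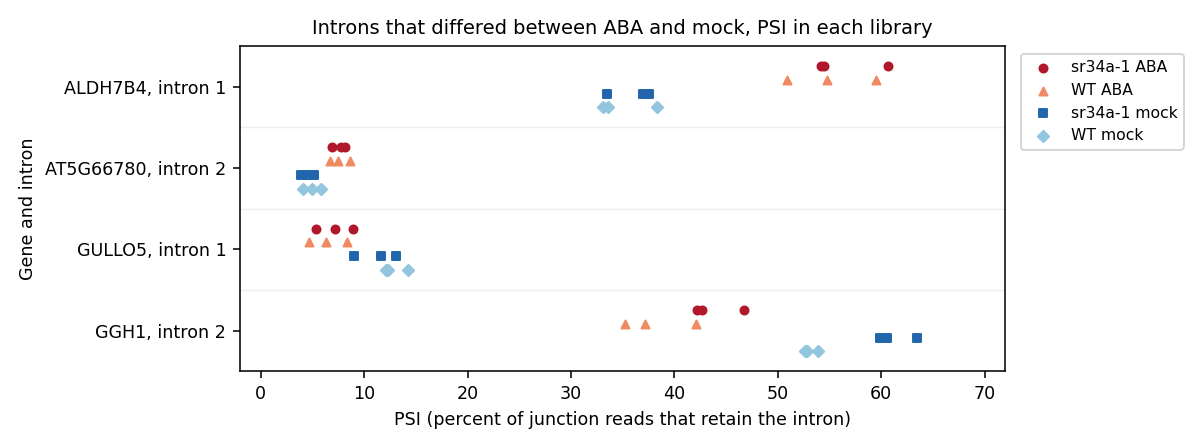
PSI on the x axis of the 4 introns that passed between ABA and mock, with 1 symbol per library, circles for sr34a-1 ABA, triangles for WT ABA, squares for sr34a-1 mock and diamonds for WT mock. ALDH7B4 and AT5G66780 are higher and GULLO5 and GGH1 lower with ABA, without overlap in any of the 4.

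The other 2 calls were smaller. Intron 2 of AT5G66780, annotated as a late embryogenesis abundant protein gene, had 6.93, 8.11 and 7.79 PSI in sr34a-1 ABA against 3.94, 4.44 and 5.16 in sr34a-1 mock. In WT it had 6.67, 7.46 and 8.6 PSI with ABA against 4.13, 4.94 and 5.80 in mock (log2 difference 0.72 ± 0.12, adjusted p = 0.00166 by limma). This intron had reads at both junctions, 2542 upstream and 3370 downstream in sr34a-1 ABA, and its gene was higher with ABA, at 228 ± 98.4 CPM against 46.5 ± 21.0 CPM in mock (adjusted p = 3.73e-10 by edgeR). The first intron of GULLO5, annotated in the D-arabinono-1,4-lactone oxidase family, averaged 6.79 ± 1.68 PSI with ABA and 12.1 ± 1.74 PSI in mock. Its adjusted p of 0.0379 by limma held in 3 of the 12 fits that leave out 1 library, those without sr34a-1 mock replicate 2, sr34a-1 ABA replicate 1 or WT ABA replicate 3, and reached 0.198 without sr34a-1 mock replicate 3 and 0.0561 with the libraries centred.

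The core of ABA signalling held partly retained introns and none passed, beside a share of 0.0543% over all 7373 introns. A count of 0 among so few introns therefore does not set these genes apart. Of its 14 introns in 12 genes limma called 0 between ABA and mock, with 3 at an unadjusted p under 0.05, and the model on PSI also called 0. The median log2 difference of the 14 was 0.36, beside -0.07 over all 7373 introns. Intron 4 of HAB1, a phosphatase that holds the pathway off, averaged 17.7 PSI in sr34a-1 ABA and 15.4 in sr34a-1 mock, and 18.6 in WT ABA and 12.6 in WT mock (averaged adjusted p = 0.408 by limma). Intron 4 of ABF2, an ABA-responsive bZIP factor, averaged 4.03 PSI in sr34a-1 ABA and 1.41 in sr34a-1 mock, and 5.69 in WT ABA and 1.85 in WT mock (adjusted p = 0.408). Intron 3 of PP2CA, another phosphatase of the pathway, averaged 4.72 PSI in sr34a-1 ABA and 2.67 in sr34a-1 mock, and 4.96 in WT ABA and 2.40 in WT mock (adjusted p = 0.572). ABF4 had the most retained intron of the list, at a mean of 45.2 PSI. In the other lists limma called 0 of 11 SR, 15 splicing regulator, 11 clock and 10 light signalling introns between ABA and mock, with 0, 1, 0 and 1 at an unadjusted p under 0.05. These counts too are near the share over all 7373 introns.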

How the data were processed

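RNA of 12 libraries, 3 in each of 4 groups, was sequenced, and reads were mapped to TAIR10, per the submitters' processing notes. The aligner, the strandedness and the counting options are not given in the sources used here. The deposited splicing table gives PSI as a percent for each event and library, with the retained and spliced reads behind it. The deposited gene table gives raw counts per gene, and RPKM values that the authors corrected for mappable length, per the file headers.

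From these, introns were chosen by length, reads and mean PSI, and the members and gene lists were chosen with earlier results of these data known. PSI recomputed from the deposited reads differed from the deposited percent by less than 0.05 in these introns. Log2 ratios of retained to spliced reads, with 0.5 added to each, were fitted with limma 3.58.1 in R 4.3.3 over 28000 events with at least 10 reads in each library and a mean PSI of 2 to 98. One mean per group was used, p-values were adjusted over all 28000 events by Benjamini and Hochberg, and 0.05 was the threshold. Gene counts were tested with edgeR 4.0.16, after its filter on low counts and TMM scaling. DESeq2 1.42.0 was an alternative, and both the intron and the gene step were tested on simulated data. Summaries used Python 3.11.15, pandas 2.3.3 and matplotlib 3.10.9.

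Named introns are the 10 largest rises and 10 largest falls in PSI of each averaged comparison that passed without overlap, the 5 largest of each single comparison, the introns of the gene lists, those nearest the limits and the 3 with the most reads. The gene lists were SR and SR-like factors, other splicing regulators, the circadian clock, ABA signalling, light signalling and nonsense-mediated decay, and a list of seed and seedling markers, whose 6 genes held 0 of the introns. Replicate numbers were not used as pairs. Since nothing says that replicates came from separate seed batches or plates, p-values measure the spread between these samples, which may be technical. Alternatives were other read minimums, added reads, filters, centring, adjustment sets and fits, and each library left out in turn.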

Additional observations from a re-analysis of the deposited data

How the results depend on the processing

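The averaged genotype count of 84 introns stayed within 1.5 times under every alternative fit, from 67 with no filter on mean PSI to 114 with introns fitted alone, and was 52 to 73 with 1 library left out. With no filter on mean PSI, the ABA count was 13 in WT, 13 in sr34a-1 and 37 averaged. With introns fitted alone, it was 46 for genotype under ABA and 9 for ABA averaged. With only the libraries compared, genotype under ABA gave 14, and limma on PSI gave 7 for ABA averaged. Without introns of unbalanced junctions, ABA gave 0 in WT, 0 in sr34a-1 and 2 averaged. The cause of these differences was not tested. With 1 library left out, the counts were 7 to 18 for genotype in mock, 17 to 26 for genotype under ABA, 2 to 3 for ABA in WT, 2 to 3 for ABA in sr34a-1, 3 to 5 for ABA averaged and 0 to 0 for the interaction. The genes of the introns gave 1466 to 1830 calls between genotypes and 2501 to 2601 between ABA and mock. Of 64 named results, 37 passed in every fit with 1 library left out. None changed direction, but they were named for passing the test, mostly without overlap of libraries. A reversal was therefore hardly possible.

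Event by event, deviations of replicates with the same number were hardly correlated, with a mean correlation of 0.0087 over 18 pairs and 0 above 0.1. This measure takes out a shift of a whole library and holds counting error, so it cannot show that the replicates were unrelated. The lowest median PSI of each group was that of replicate 1. It was 3.88 in sr34a-1 ABA, 3.99 in WT ABA, 3.92 in sr34a-1 mock and 4.18 in WT mock. With the replicate number as a block, 87 introns passed between genotypes averaged, 17 in mock and 26 under ABA, 4 between ABA and mock averaged, 2 in WT and 3 in sr34a-1, and 0 in the interaction. The genes gave 2129 calls between genotypes and 2951 between ABA and mock with the block, against 1819 and 2682 without it. At the median of 115 reads per intron and library, the binomial error of a single library, which can overstate the counting error, was 2.03 PSI.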

Other observations

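In 16 genes there were 6 or more of the introns, and the spread of retention within a gene varied among them. RDR5, annotated as an RNA-dependent RNA polymerase, held 6, with mean PSI of 2.66 to 46.98. AT5G50330 held 6, from 2.12 to 43.3 PSI, and NHX5, the sodium-proton exchanger gene with a U12-type intron, held 6, from 3.75 to 30.3 PSI. In XDH2, of xanthine dehydrogenase, the 6 introns were closer together, from 2.50 to 7.39 PSI, as they were in CCR4-5, from 2.22 to 6.12 PSI.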
